A study of Danio rerio with 19 samples.

Results

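The miR-430 family was measured on 19 two-colour microarrays of zebrafish (Danio rerio) larvae and fins that express oncogenic HRAS or do not. Members were all array features whose name starts with dre-mir-430, 38 of the 546 features for known zebrafish miRNAs. Several loci of the family produce the same RNA, and these 38 features hold 12 distinct 22-base sequences among 411. They cover the subfamilies a, b, c and i, and the family's subfamily j has no feature among them. Where identical features occurred, their values were averaged, so that a sequence counted once. Each array paired the RNA of Ras transgenic fish with that of AB wild type controls. In kita:HRAS fish (kita:Ras) the oncogene is switched on through Gal4 made from the kita promoter, which is active in melanocytes and in the notochord. There were 4 arrays of kita:Ras larvae at 3 dpf (days post-fertilization), 3 at 7 dpf, 3 at 14 dpf, and 3 of adult tail fins with tumor against fins of AB adults (fin in the sample labels, skin in a legend of the study). In zic:HRAS larvae (zic:Ras, 3 arrays at 3 dpf) the oncogene is on in brain cells. In hsp70:HRAS larvae (HS-Ras, 3 arrays) a heat shock at 37°C for 30 min at 3 dpf turns it on in the whole body, RNA was taken 6 h later, and the controls had the same heat shock. Larvae were pooled, 15 to a sample at 3 and 7 dpf and 5 at 14 dpf. Replicate pools had different parents, and adult fins came from single fish.

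miR-430 is the best known miRNA family of the early zebrafish embryo. It is transcribed from a cluster of repeated hairpins as soon as the zygotic genome turns on, and it binds maternal mRNAs and speeds their removal. The strand that enters the silencing complex comes from the right (3′) arm of the hairpin, and its seed, bases 2 to 8, is shared with mammalian families of early embryonic and stem cells. The left (5′) arm is the passenger strand and is usually degraded. In the RefSeq annotation of GRCz12tu, 57 of 58 miR-430 genes lie on chromosome 4, in a span of 371 kb that holds 2 other genes. The annotation lists 13 of the 16 loci that the array names. It is of another build than the array design, so no coordinates were used.

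The sequences that follow are the RNAs each feature was designed to bind, read from the array files 5′ to 3′ and written with T for U. The 4 right arms are shown first, with the seed in capitals, because the largest changes lie in them.
miR-430a right arm (7 features, 6 loci): tAAGTGCTatttgttggggtag
miR-430b right arm (9 features, 7 loci): aAAGTGCTatcaagttggggta
miR-430c right arm (1 feature): tAAGTGCTtctctttggggtag
miR-430i right arm (1 feature): tAAGTGCTatttgttggcgtag
All 4 share the seed AAGTGCT. The miR-430i right arm differs from that of miR-430a at 1 of 22 bases, G18C, counted from the 5′ end of the miR-430a sequence. The right arms of a and c differ at 4 bases, and those of a and b at 9.

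Among the left arms, the sequences of miR-430a-12 and miR-430i are shown with the 19 bases they share in capitals, since both were measured and their ratios are compared later.
miR-430a-12 left arm (also miR-430a-18): CCCTCACAAAAGCACTGACttt
miR-430i left arm: gtaCCCTCACAAAAGCACTGAC
miR-430a-10 left arm (also miR-430a-2): ccctcacaaaggcactgacttg
miR-430b left arm (9 features, 7 loci): actctaactttagcatctttct
miR-430c left arm (miR-430c-2 and miR-430c-10): cacttcaaacaggagcattgat
A second feature is named for the left arm of miR-430c-10, but 15 of its bases (in capitals) are the first 15 of the miR-430c right arm. Its target may be a shifted stretch of the hairpin, or its name may be wrong. No hairpin sequence was at hand to tell.
Second miR-430c-10 feature: ttgttcaTAAGTGCTTCTCTTT
The left arms of miR-430a-22 and miR-430a-23 each had 1 feature and matched no other member at more than 11 of 22 bases in the same position. Closely related sequences such as a and i can bind each other's features, and an array cannot tell how much of a signal comes from each. No known miRNA outside the family matched a member at fewer than 8 mismatches, and no predicted hairpin feature was identical to a member or 1 base from it.

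At 3 dpf 9 of the 12 sequences were above background. A sequence counted as above background on an array when at least 0.5 of its spots were flagged well above background, and in a group when this held on 3 of 4 or 2 of 3 arrays. In controls 9 members met this in the zic:Ras and in the HS-Ras experiment at 3 dpf, 8 in the kita:Ras experiment at 3 dpf, 9 at 7 dpf, 8 at 14 dpf and 0 in adult fins. In the Ras channel the numbers were 9, 9, 7, 9, 6 and 0. Of the 411 known sequences, 77.4%, 76.9%, 66.4%, 86.4%, 87.1% and 60.8% met this in controls, in the same order of groups. In the Ras channel the shares were 75.9%, 73.5%, 56%, 87.1%, 84.4% and 51.6%. The remaining 3 sequences stayed dark: miR-430a-22 and miR-430a-23 left arms each reached the flag on 1 control sample of 19, and the second miR-430c-10 feature on 0 of 19, although the miR-430c right arm, with which it shares 15 bases, was above background in every 3 dpf control. A level below background is not shown to be absent.

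The level of a sequence is its log2 processed signal minus the 75th percentile of the array, taken in each channel over the known sequences above background on all 19 arrays (189 in the control channel, 145 in the Ras channel). It follows 1 sequence across samples and does not rank sequences against each other. Larvae were sampled whole, so that fewer expressing cells and less RNA per cell cannot be told apart.

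The right arms fell steeply between 3 and 7 dpf in normal larvae. The control level of the miR-430b right arm was 0.05, -0.06, 0.20 and 0.04 in the 4 pools of the kita:Ras experiment at 3 dpf, and -4.96, -4.92 and -4.89 in the 3 pools at 7 dpf. No pool at 7 dpf came within 4 log2 units of one at 3 dpf. The difference was -4.92 ± 0.38 (SE; limma, adjusted p = 9.6e-08), a 30.2-fold fall that left 3.32% of the 3 dpf level. The miR-430a right arm went from between -0.90 and -0.31 to between -5.03 and -4.92, a difference of -4.13 ± 0.27 (adjusted p = 1.91e-08 in limma). The difference was -4.10 ± 0.33 for miR-430c and -3.87 ± 0.24 for miR-430i, so that all 4 kept between 3.32% and 6.82% of their 3 dpf level. Among the 357 known sequences tested, these were the falls of rank 1 (b), 2 (a), 3 (c) and 5 (i). Counting left arms, 8 of the 9 members tested passed the call (adjusted p below 0.01 over all known sequences tested and a change above 1.2-fold) with a fall, where 35.3% of the known sequences tested were called lower. The median of the 9 was -1.99, against -0.26 over all sequences tested. The zero point depends on the scaling: with the 75th percentile taken over all sequences the median of all known sequences was 0.33. With it, 13.4% of known sequences were called lower, and 7 members were. That scaling shifts all sequences alike, so the median of the members less that of all sequences is -1.73 under both and tests nothing. With normexp, loess and Aquantile normalization, which raises dim signals, the differences were smaller (-3.87 for b, -3.01 for a, -2.47 for i and -1.48 for c), and all 4 right arms were still called. Since the fit held slide as a block, and the 7 dpf arrays were all on the first of the 3 slides, these differences equal those among the 5 arrays of that slide.

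**Figure D1:**
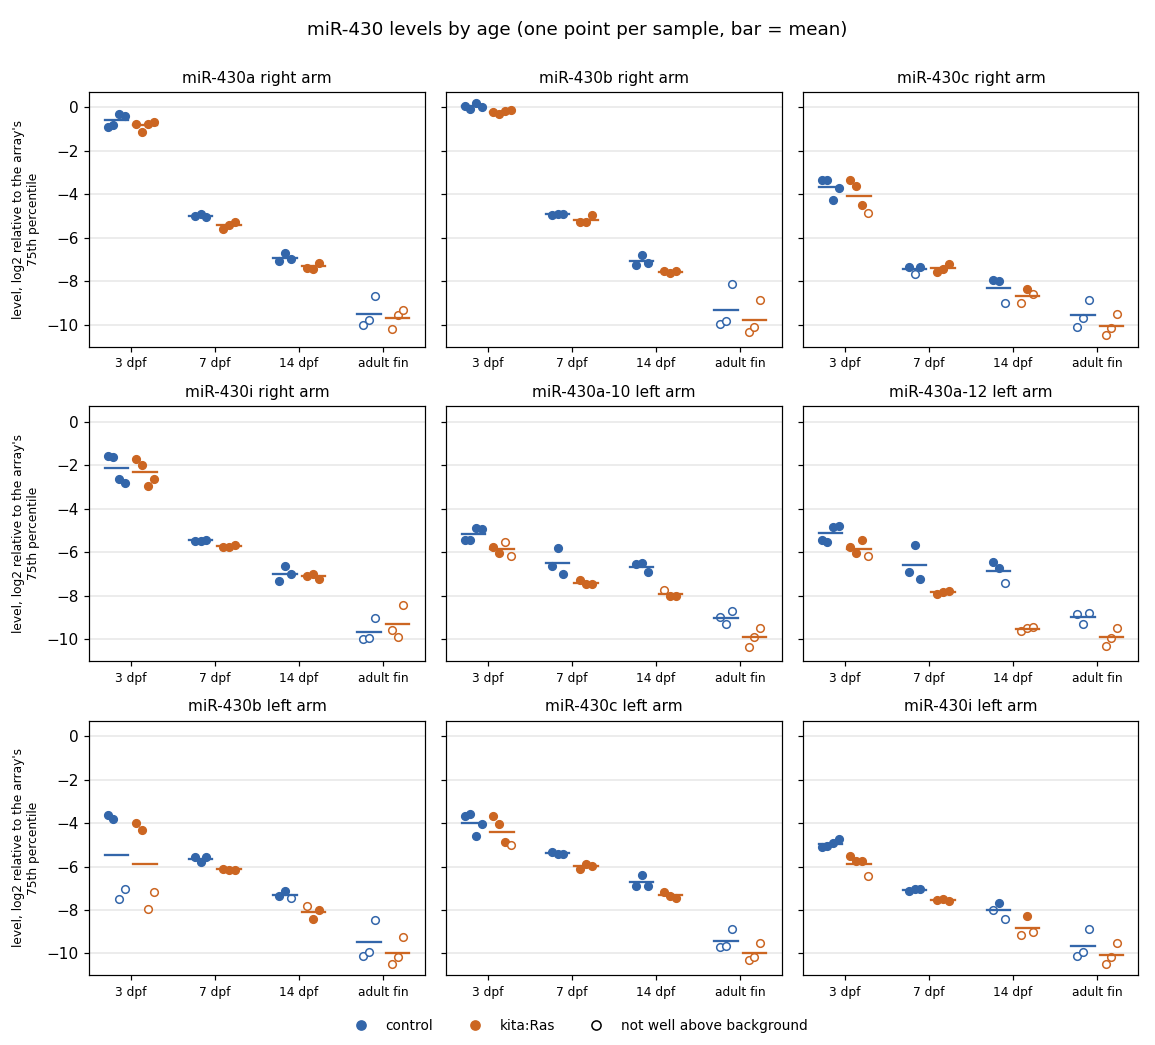
Levels of the 9 miR-430 sequences above background at 3 dpf, in controls and kita:Ras larvae of each age and in adult fins (y axis: log2 relative to the 75th percentile of the array). Each point is a sample, bars are means and open points are samples not well above background. The right arms of a and b drop from near 0 to near -5 and then to near -7, and every adult point is open.

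The left arms had smaller differences over the same days. The level of the miR-430c left arm in controls was -3.67, -3.60, -4.58 and -4.05 at 3 dpf and between -5.42 and -5.35 at 7 dpf, a difference of -1.76 ± 0.22 (adjusted p = 7.3e-06 in limma). The difference was -1.99 ± 0.29 for the miR-430i left arm and -1.94 ± 0.34 for that of miR-430b. The miR-430a-10 left arm was at -1.04 ± 0.27 (adjusted p = 0.00353 in limma), a call lost under each of the 3 other scalings (-0.45 to -0.13) and without 3 dpf replicate 1 or 2 or 7 dpf replicate 1 or 3. With quantile normalization the miR-430b left arm was at -1.34 and no longer called, and with normexp, loess and Aquantile that of miR-430i was at -0.51 and no longer called. The miR-430a-12 left arm, at -1.13 ± 0.36, missed the threshold (adjusted p = 0.0126 in limma). In these last 2 the pool of replicate 2 at 7 dpf stood apart, at -5.80 and -5.68 against -7.24 to -6.64 in the other pools. Without that pool both were called. The lowest signal above background on the 7 dpf arrays lay between -9.53 and -7.75 in the control channel. A signal near this floor can fall no further in the measurement. The 7 dpf control means of the left arms lay between -7.06 (miR-430i) and -5.39 (miR-430c), each above background on 3 of 3 arrays. The mean of the miR-430c right arm was -7.46. What part the floor had in the smaller differences of the left arms was not tested.

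The Ras channel, read on the same arrays but from the RNA of the transgenic larvae, gave falls in the same direction. All 9 members tested were called lower at 7 than at 3 dpf in kita:Ras larvae, where 29.1% of known sequences were. The miR-430b right arm measured -0.23, -0.30, -0.14 and -0.10 at 3 dpf and -5.28, -5.29 and -4.97 at 7 dpf, a difference of -4.92 ± 0.30 (adjusted p = 1.36e-08 in limma). The differences for the right arms of a, c and i were -4.47, -3.95 and -3.89. Those for the left arms lay between -2.10 (miR-430c) and -1.503 (miR-430a-10). The call of the miR-430a-10 left arm was lost under each of the 3 other scalings (-0.89 to -0.32, adjusted p from 0.0459 to 0.0653 in limma), that of the miR-430i left arm with normexp, loess and Aquantile (-0.31), and that of the miR-430b left arm without slide in the fit (-0.26).

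**Figure D2:**
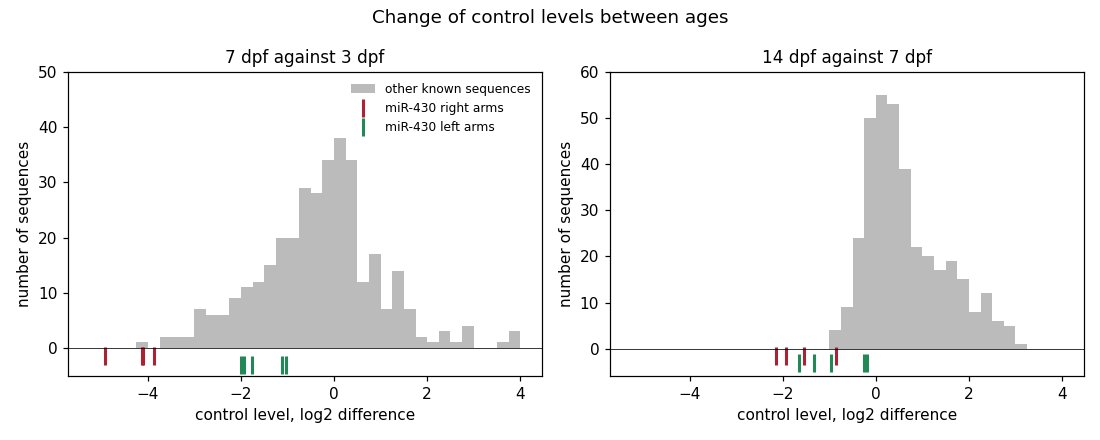
Log2 difference of control levels for all known sequences tested, 7 dpf against 3 dpf (left) and 14 dpf against 7 dpf (right), as histograms, with the miR-430 right and left arms as ticks under the axis. The 4 right arms hold ranks 1, 2, 3 and 5 from the left for 7 dpf, and most members lie at the left edge for 14 dpf.

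The right arms of a, b and i fell further between 7 and 14 dpf. The miR-430b right arm reached -7.28, -6.775 and -7.15 in the 3 control pools at 14 dpf, a further -2.15 ± 0.34 (adjusted p = 0.000138 in limma), or 4.43-fold lower than at 7 dpf. The difference was -1.94 ± 0.24 for miR-430a and -1.54 ± 0.21 for miR-430i. The left arms of miR-430b (-1.66 ± 0.30), miR-430c (-1.33 ± 0.20) and miR-430i (-0.96 ± 0.26) were called lower as well. The call of the miR-430i left arm was lost without any 1 pool other than 14 dpf replicate 2, with adjusted p up to 0.0319 in limma, and that of the miR-430b left arm without slide in the fit. In all 6 of the 9 members tested were called lower, against 7.07% of 368 known sequences. The miR-430i left arm, 1 of the 6, was above background in controls at 14 dpf on 1 of 3 arrays. It entered through its 7 dpf signal alone, which fixed the direction of its call. Apart from it, the members called were the falls of rank 1 to 5 among all sequences tested. The worst rank among the 4 right arms was 8, that of miR-430c, and 91 with normexp, loess and Aquantile. The median of the 9 was -1.33 while that of all sequences tested was 0.36. With the 75th percentile of all sequences these medians were -2.14 and -0.44, 11.1% of known sequences were called lower, and 7 members were. With normexp, loess and Aquantile the miR-430b right arm was at -0.92 and that of miR-430a at -0.89, and 5 members were called against 7.88%. The miR-430c right arm was at -0.85 ± 0.29 (adjusted p = 0.0225 in limma), and was above background on 2 of 3 control arrays at 14 dpf. The left arms of miR-430a-10 and miR-430a-12 were at -0.18 ± 0.24 and -0.26 ± 0.32, within the spread of their pools. The sign of both turned positive (0.17 and 0.20) without replicate 2 at 7 dpf. With quantile normalization both were called lower (-1.20 and -1.41), as was the miR-430c right arm (-1.55). All 9 members were then called, against 20.7% of known sequences.

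In kita:Ras larvae 8 of 9 members tested were called lower at 14 than at 7 dpf, against 4.37% of 366 known sequences. Among the 8, the miR-430a-12 left arm was above background at 14 dpf on 0 of 3 arrays. The miR-430c right arm and the miR-430i left arm were so on 1 of 3 each. These members entered through their 7 dpf signal alone, which fixed the direction of their calls, so nothing is read from those calls. The miR-430b right arm was at -7.52, -7.64 and -7.54, a difference of -2.39 ± 0.27 (adjusted p = 3.34e-05 in limma). The exception was the miR-430a-10 left arm at -0.54 ± 0.21 (adjusted p = 0.0514 in limma). It was called lower with the 75th percentile of all sequences (-1.45) and with quantile normalization (-1.17). With normexp, loess and Aquantile 5 were called, where 9.02% of known sequences were, and the calls of the miR-430c right arm and of the miR-430i and miR-430a-12 left arms were lost. Without slide in the fit those of the miR-430b left arm and the miR-430c right arm were lost. The Ras signal of the miR-430a-12 left arm was above background on 3 of 3 arrays at 7 dpf and on 0 of 3 at 14 dpf, so only a bound of at least 1.16-fold lower can be given. At 14 dpf the right arms of a, b and i were still above background in both channels on all 3 arrays, but on single arrays only 0.5 of the miR-430b spots were flagged.

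No member was above background in adult fins, in either channel, where 60.8% of known sequences were in controls and 51.6% in the Ras channel. The measured control levels of the miR-430b right arm there were -9.99, -9.83 and -8.15, values with no order among them. Against the 3 dpf controls of the kita:Ras experiment, the miR-430b right arm was at least 29.6-fold lower and that of miR-430a at least 18.7-fold lower. The bounds for the right arms of miR-430i and miR-430c were 6.56-fold and 2.93-fold, and those of the left arms lay between 1.54-fold and 2.34-fold. In the Ras channel the bounds for miR-430b, miR-430a and miR-430i right arms were 25.9-fold, 15.9-fold and 5.57-fold. The adult arrays were all on slide 2, the 3 dpf arrays on slides 1 and 2. Against the 2 arrays of 3 dpf on slide 2, the control bounds were 31.5-fold (b), 22-fold (a), 5-fold (i) and 2.9-fold (c) for right arms. Those of left arms lay between 1.46-fold and 2.12-fold. In the Ras channel they were 27.7-fold (b), 17.1-fold (a) and 4.28-fold (i), so that of miR-430i was smaller within the slide. These bounds set the 3 dpf mean against the higher of the lowest signal above background and the measured signal, on background-corrected, loess- and Aquantile-normalized values. The members entered this comparison through their 3 dpf signal alone, which fixed the direction of any call, so no count of called members is read from it. Of all known sequences tested, 60.3% of 302 were called lower in the control channel and 59.1% of 257 in the Ras channel. Age and tissue cannot be told apart here, since the adults are fins and the larvae whole bodies. Of 15 sequences on a list of brain miRNAs, 6 were above background in adult control fins and between 14 and 15 in each larval group. Of 2 sequences of the liver miRNA miR-122, 0 were so in adult fins. Other lists kept more there: 9 of 12 for muscle, 9 of 12 for epidermis, 4 of 4 for red blood cells and 4 of 4 for pigment cells. In the kita:Ras controls at 3 dpf these last counts were 9, 10, 3 and 4.

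Among the 10 control pools at 3 dpf, levels differed between slides. The miR-430a right arm was at -0.90 and -0.80 on the first slide. It was at -0.31 and -0.39 on slide 2, and between 0.39 and 0.67 on slide 3, which carried the zic:Ras and HS-Ras experiments. The miR-430i right arm was at -1.55 and -1.61 on the first slide, lower on the second (-2.61 and -2.79), and between -1.07 and -0.90 on the third. The difference was largest in the miR-430b left arm, which measured -3.62 and -3.80 on the first slide, was not above background in either channel on the second, at -7.48 and -7.03, and lay between -4.80 and -4.63 on the third. All 9 of its features behaved alike, with an SD among identical features of at most 0.21 in any 3 dpf control. On the second slide, which also held the adult fins, 61.7% to 67.3% of the known spots were above background in the control channel. On the first, which also held the 7 and 14 dpf larvae, the share was 78.8% to 92.0%. These shares are over all arrays of a slide and mix slide with age and tissue. The part of the slide in the level differences was not tested apart from that of the pools. Without slide in the fit, the fall of the miR-430b left arm from 3 to 7 dpf was -0.16 (adjusted p = 0.852 in limma), in place of -1.94.

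**Figure D3:**
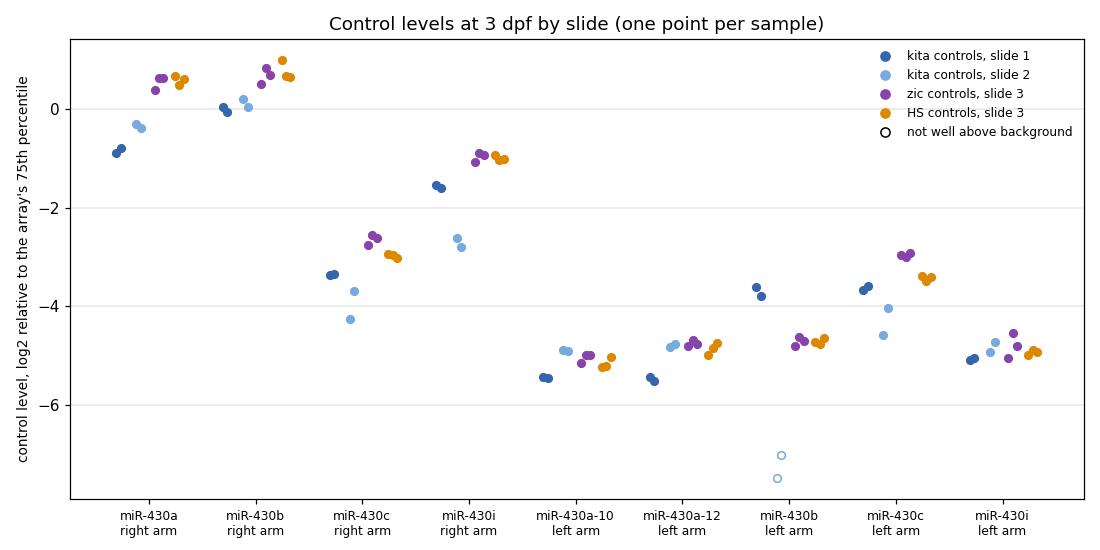
Control levels of the 9 miR-430 sequences at 3 dpf (y axis: log2 relative to the 75th percentile of the array), 1 point per pool, by experiment and slide. Open points are not well above background, and the miR-430b left arm has them on the second slide alone.

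No member differed past the threshold between heat-shocked and unshocked controls. The controls of HS-Ras, heat-shocked 6 h before sampling, were set against the unshocked controls of zic:Ras on the same slide. The miR-430b right arm was at 0.995, 0.68 and 0.66 in heat-shocked and at 0.50, 0.82 and 0.68 in unshocked pools, which overlap, and the difference was 0.11 ± 0.34 (adjusted p = 0.943 in limma). The lowest value was that of the miR-430c left arm, with -3.40, -3.48 and -3.41 in heat-shocked and -2.97, -3.01 and -2.92 in unshocked pools. These groups did not overlap, but the difference of -0.46 ± 0.19 missed the threshold (adjusted p = 0.25 in limma). Of the 9 members tested 0 were called, 1 had an unadjusted p below 0.05, and 0.311% of known sequences were called.

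The Ras to control ratio asks whether the family differs between transgenic and control fish of one age. It is the log2 of the Ras over the control signal of the same array, with no dye swap, so a dye bias of a sequence remains in it. In kita:Ras larvae at 3 dpf the ratio of the miR-430b right arm was -0.004, 0.01, 0.003 and 0.05 on the 4 arrays, with a mean of 0.01 ± 0.08 (SE). All 4 arrays lay within 0.05 of 0. The miR-430a right arm was at 0.40 on 1 array and between -0.12 and -0.07 on the other 3. The miR-430b left arm had a mean of -0.10 and was not tested. Both arms of miR-430c were alike, at -0.18 ± 0.14 (left) and -0.15 ± 0.21 (right). Lower means were those of the left arms of miR-430i (-0.65 ± 0.16, adjusted p = 0.0199 in limma), miR-430a-12 (-0.45 ± 0.24) and miR-430a-10 (-0.44 ± 0.18). Replicate 4 contributed most to these lower means, with a ratio of -1.503 for miR-430i against -0.49 to -0.17 on the other 3 arrays. Its Ras channel was below background for all 5 left arms and for the miR-430c right arm. Of 8 members tested 0 were called, 2 had an unadjusted p below 0.05, and 1.1% of known sequences were called.

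In zic:Ras larvae every member tested had ratios below 0, though none passed the test. All 27 ratios of the 9 members tested were below 0, so that 9 of 9 were below 0 on every array, where 24.5% of the 322 known sequences tested were. The miR-430c left arm had the lowest values, -0.47, -0.56 and -0.63, with a mean of -0.55 ± 0.16. The miR-430b left arm was at -0.33, -0.47 and -0.50. The right arms of a, b and i had means of -0.30 ± 0.11, -0.29 ± 0.10 and -0.28 ± 0.10, and the 3 arrays of miR-430b were at -0.11, -0.37 and -0.39. The means of the 9 lay between -0.55 and -0.21 with a median of -0.29, while that of all known sequences tested was 0.03, and they held ranks from 5 to 36 of 322 from the lowest. None passed the call: the lowest adjusted p was 0.072 in limma for the left arms of b and c, 5 had an unadjusted p below 0.05, and 1.24% of known sequences were called. Where the spots' median signals were instead corrected with normexp and normalized by loess, 5 of the 9 were called lower (the left arms of b, c and i and the right arms of b and i, adjusted p from 0.00141 to 0.0043 in limma), where 2.17% of known sequences were called lower. How far the members' ratios depend on each other was not tested.

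In HS-Ras larvae most members were close to 0. The ratio of the miR-430b right arm was -0.10, -0.06 and -0.04 with a mean of -0.07 ± 0.10. The miR-430c left arm had the highest values, 0.47, 0.37 and 0.32, above 0 on every array and above all 3 values of zic:Ras. Its mean was 0.39 ± 0.16 (adjusted p = 0.155 in limma). Both channels of this sequence differed between the experiments. The mean control level was -3.43 in HS-Ras and -2.97 in zic:Ras, and the mean Ras level -3.37 and -3.87. The part of each channel in the difference of the ratios was not tested. Of 9 members tested 0 were called, 1 had an unadjusted p below 0.05, and 5.94% of known sequences were called. In the F test of limma for a difference among the 3 models at 3 dpf, the miR-430c left arm had an adjusted p of 0.0332, above the threshold of 0.01, and no other member was below 0.17. The test called 0 of 8 members and 0.755% of known sequences.

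**Figure D4:**
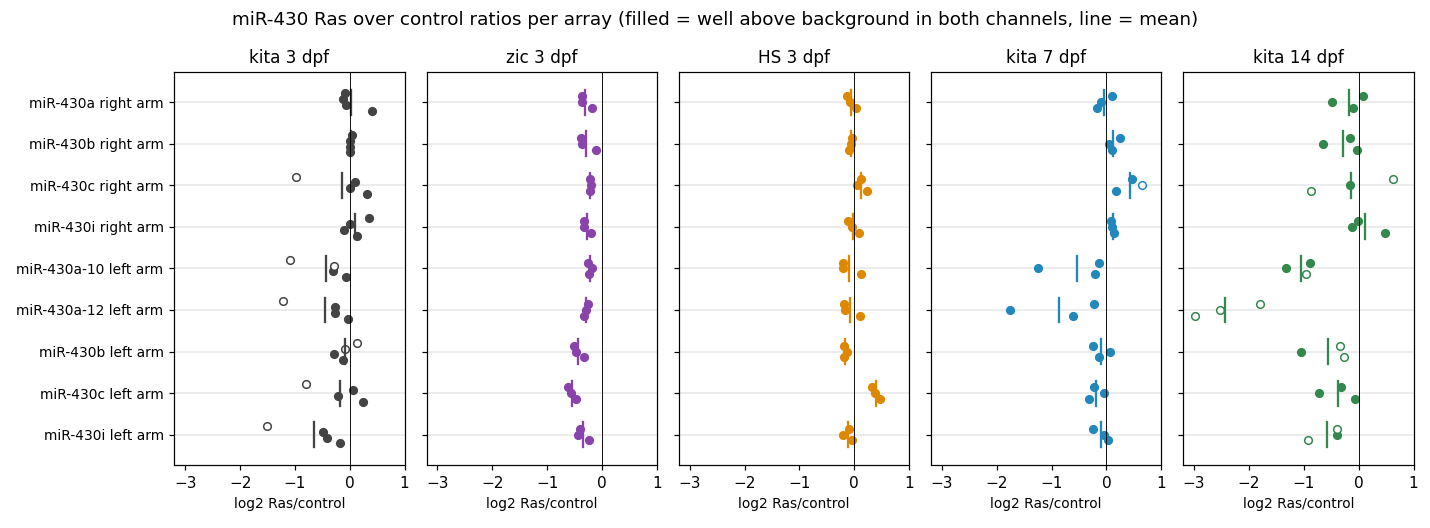
Log2 Ras over control ratio of the 9 sequences on each array, in 5 larval groups. Filled points are above background in both channels, open points are not, and lines are means. In zic:Ras all points lie left of 0, and at 14 dpf the miR-430a-12 left arm lies between -2.98 and -1.80 with open points alone.

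At 7 dpf 0 of 9 members were called in kita:Ras, 2 had an unadjusted p below 0.05, and 2.75% of known sequences were called. The right arms of b, c and i were above 0 on all 3 arrays, with means of 0.12 ± 0.10, 0.43 ± 0.24 and 0.11 ± 0.10, none of them past the test. The highest value of miR-430c, 0.65, was from replicate 2, where its control signal was not above background. The left arms of miR-430a-10, miR-430a-12 and miR-430c were below 0 on all 3 arrays. The miR-430a-12 left arm had ratios of -0.61, -1.76 and -0.23, of which the lowest is from replicate 2, the array on which its control signal was high.

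At 14 dpf 3 of 8 members were called lower in kita:Ras than in controls, all of them left arms, where 22.2% of the 365 known sequences tested were called lower and 24.9% in either direction. The miR-430a-12 left arm had ratios of -2.98, -2.53 and -1.80. Its Ras signal was above background on 0 of 3 arrays and its control signal on 2 of 3, so the fold is given as a bound of at least 1.3-fold lower. It entered the test through its control signal alone, which fixed the sign of its ratio, so nothing is read from its call. The miR-430a-10 left arm, which differs from it at 2 of 22 bases, was at -0.96, -1.32 and -0.88, with a mean of -1.06 ± 0.21 (adjusted p = 0.00165 in limma). Its Ras signal was not above background on replicate 1. The miR-430b left arm was at -0.27, -1.06 and -0.34, with a mean of -0.56 ± 0.12 (adjusted p = 0.00356 in limma). It was above background in both channels on replicate 2 alone. Without replicate 2 the miR-430b left arm was at -0.31 and was no longer called, nor was miR-430a-10. The miR-430a-12 left arm was then above background on too few arrays to be tested. The miR-430i left arm, which shares 19 bases with miR-430a-12, had ratios of -0.93, -0.39 and -0.39 but was above background on 1 of 3 arrays in each channel and was not tested. No right arm was called. The miR-430b right arm was at -0.03, -0.64 and -0.16, with a mean of -0.28 ± 0.10 (adjusted p = 0.0346 in limma), and miR-430a and miR-430i were at -0.17 ± 0.11 and 0.11 ± 0.10. The median of all 365 known sequences tested was -0.16. With median centring the 3 left arms stayed called, and the right arms of b, a and i were at -0.14, -0.03 and 0.25, uncalled. The call of the miR-430b left arm was also lost with ratios of exactly 0 set as missing (adjusted p = 0.0281 in limma) or with slide as a random block (-0.53, adjusted p = 0.0192 in limma), which left 2 members called. With normexp and loess, 0 of 8 members and 21.6% of known sequences were called, and the differences shrank to -0.39 for miR-430a-12, -0.22 for miR-430a-10 and -0.135 for miR-430b. With the 14 dpf arrays fitted alone the differences stayed as they were, but 0 of 8 members and 0 of 365 known sequences were called. In adult fins no member was tested, since none was above background. The F test among 3, 7 and 14 dpf called 0 of 7 members and 1.11% of known sequences, with the miR-430a-12 left arm at an adjusted p of 0.0179 in limma.

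The members moved together across the control samples. Over the 19 control samples, the control level of the miR-430b right arm had a Pearson correlation of 0.998 with that of the miR-430a right arm, 0.99 with both arms of miR-430i, 0.988 with the miR-430c right arm, between 0.816 and 0.959 with the other left arms above background, and between 0.0359 and 0.214 with the 3 dark sequences. The points share array, slide, age and tissue, and no correlation within one age was computed. Outside the family, the sequences most like it were the miR-181a right arm (0.971), the miR-137 left arm (0.966), both miR-219 right-arm sequences (0.948 and 0.943) and the miR-15c left arm (0.944). miR-137 and miR-219 are known from neural cells.

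Outside the family, 2 known sequences hold the seed letters AAGTGC within their first 8 bases, the left arms of miR-93 and miR-20b, members of the miR-17 group that is active in growing cells.
miR-93 left arm: aaaagtgctgtttgtgcaggta
miR-20b left arm: caaagtgctcacagtgcaggta
Their control levels changed by -0.51 ± 0.08 and -0.78 ± 0.12 from 3 to 7 dpf (adjusted p = 0.000105 and 5.02e-05 in limma), where the 4 miR-430 right arms were at -4.92 to -3.87. From 7 to 14 dpf they were at 0.06 ± 0.07 and -0.22 ± 0.11, and neither was called.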

How the data were processed

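Each feature of the custom Agilent array held 2 copies of a 22-base stretch complementary to an miRNA and was printed on 2 spots. Ras RNA was labelled with Hy3 (green) and control RNA with Hy5 (red). The authors deposited Feature Extraction output for every array: linear intensity values that the software had background-subtracted and corrected for dye, their log10 ratio (red over green), and flags that mark outliers and signals well above background. The flags were used as deposited. The submitters' notes name Feature Extraction 9.5.3.1, while the file headers give 10.7.3.1. The deposited value table of log10 ratios equals that of the array files.

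Log10 ratios were turned into log2 ratios of Ras over control. Feature Extraction gives a ratio of exactly 0 to many dim spots (40 of the 228 member values, and 36.6% to 61.5% of an array's spots), which were kept. Outlier spots were left out, and spots with the same 22-base sequence were averaged, because testing features singly would count some sequences 9 times. A sequence was tested where it was well above background on most arrays of a comparison, for ratios in either channel and for levels in either group. limma 3.58.1 in R 4.3.3 fitted ratios on the 16 larval arrays with 5 group means, the 3 adult arrays alone, and levels of each channel on all 19 arrays with 6 group means and slide as a block, two-sided, with Benjamini-Hochberg adjustment over the known sequences tested. The procedure was tested on simulated data with independent noise and planted changes. The simulation held neither a background floor nor ratios of exactly 0, so it does not cover dim signals. Figures were drawn with matplotlib 3.10.9 in Python 3.11.15.

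Members, lists, tests and the named sequences (every member above background in a group) were chosen with earlier results of these data known. Alternatives were other background corrections, scalings, filters and blocks, single features, and leaving out arrays. The number of arrays limits the precision.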

Additional observations from a re-analysis of the deposited data

Results flagged for a closer look

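In the 4 arrays of kita:Ras at 3 dpf, single values lay far from the other 3 for 3 sequences. The miR-430a right arm had a ratio of 0.40 on replicate 1, where both channels were above background and the other arrays lay between -0.12 and -0.07. The miR-430a-23 left arm had a ratio of -1.78 on replicate 1, with its control signal above background there, and exactly 0 on the other arrays. The second miR-430c-10 feature had a ratio of 0.10 on replicate 4 and exactly 0 elsewhere, and was not above background on any of them. For the miR-430a-23 left arm and the second miR-430c-10 feature, any value other than 0 would stand out, since many dim spots are given exactly 0. How often a group would stand out in this way by chance was not tested.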

How the results depend on the processing

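Every level change that was called kept its direction in all alternatives run. Members that entered through the signal of the higher group alone, among them all members of the adult comparison, had their direction fixed by this. Nothing is read from the direction of theirs. The miR-430b left arm in both channels and the miR-430a-10 left arm in the Ras channel entered the comparison of 7 with 3 dpf through 7 dpf alone. They were called lower at 7 dpf, a direction that this entry did not fix. In the Ras channel, 5 members were called lower at 14 against 7 dpf with normexp, loess and Aquantile (9.02% of all known sequences). The control counts under the same normalization were 6 at 7 dpf and 5 at 14 dpf. With no filter on dim signal, 12 were called lower in adults in the Ras channel (67.4% of all). Members below background on all arrays entered there, and that count is not read either. At 14 dpf the 3 called ratios became 0 with normexp and loess, 0 with both channels above background on every array (4 members left, the right arms of a, b and i and the left arm of c), 0 with each comparison alone (0 of 365 known sequences), and 0 to 3 when 1 array was left out, the 0 being without replicate 2. With normexp and loess, 5 were called in zic:Ras and 1 differed among models. Among ages, 1 member differed with each feature tested singly, 1 with the replicate block, and 0 to 1 with 1 array left out (1 without 3 dpf replicate 4, 7 dpf replicate 2 or 14 dpf replicate 3). The cause of these shifts was not tested.

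All results that changed sign had missed the threshold. With normexp and loess the ratio of miR-430i right was -0.017 at 7 dpf and -0.021 at 14 dpf, and that of miR-430c right 0.049 at 14 dpf (0.010 with median centring). Between heat-shocked and unshocked controls, miR-430b left was at -0.038 with the 75th percentile of all sequences, and with normexp, loess and Aquantile miR-430b left, miR-430a right and miR-430b right were at -0.046, -0.050 and -0.013. Leaving out 1 array moved the 3 dpf kita:Ras ratios of miR-430c left between -0.32 and 0.028, miR-430c right between -0.30 and 0.13 and miR-430a right between -0.093 and 0.079. It moved miR-430a right at 7 dpf between -0.13 and 0.0024, miR-430i right at 14 dpf between -0.069 and 0.23 and in HS-Ras between -0.070 and 0.023. For control levels at 14 against 7 dpf it gave -0.58 to 0.20 for miR-430a-12 left and -0.44 to 0.17 for miR-430a-10 left, and for heat shock -0.044 to 0.042 for miR-430b left, -0.029 to 0.10 for miR-430a right and -0.079 to 0.0066 for miR-430i right.

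Replicate numbers did not pair the samples: same-numbered samples of different groups had correlations of their deviations from -0.357 to 0.348 over 45 pairs, with 13 above 0.1. With the replicate block, 3 ratios were called at 14 dpf and 7 control falls at 7 dpf, and the uncalled ratios of miR-430c right in kita:Ras at 3 dpf (0.062) and miR-430i right in HS-Ras (0.00098) changed sign. Groups had 3 or 4 arrays. Without dye swaps, a dye bias of a sequence cannot be told apart from its Ras to control ratio.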
